A study of Mus musculus with 2 samples.

Results

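Adipocyte lineage genes were examined in M210B4, a mouse stromal cell line established from bone marrow, 24 h after exposure to an antibody that activates the surface receptor CD84 (anti-CD84, clone 152-1D5) or to an IgG1 isotype antibody. The genes were chosen by symbol, as 10 of the 22180 genes that have a probe set with 1 symbol: the transcription factors Cebpa, Cebpb and Cebpd, the fatty acid binding proteins Fabp4 and Fabp5, the lipid droplet proteins Plin1 and Plin2, the lipase Lpl, the fatty acid receptor Cd36 and the hormone Adipoq. Both groups were cells of the same line, 200000 per treatment, kept in RPMI with 2% FCS at 37 °C and 5% CO2, with no genetic change named in the labels. Each group was hybridized to a single Affymetrix Mouse Gene 2.0 ST chip, which in its deposited form gives 1 log2 expression value per probe set, so no replicate, error or p-value exists, and the number of arrays limits the precision. Differences are on the log2 scale, with the IgG1 value subtracted from that after anti-CD84. The labels name no adipogenic medium.

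A gene was called detected when its brightest probe set was above 4.84 on at least 1 array. That cutoff, called the detection level here, was set at the 95th percentile of 1405 probe sets of olfactory and vomeronasal receptor genes, whose use in marrow stroma would be unusual. A gene that passed it on only 1 array had to be higher on that array. Across all 41345 probe sets the median log2 value was 4.87 after anti-CD84 and 4.88 after IgG1, with a Pearson r of 0.967 between the arrays. Of 12 stromal markers 11 were detected, including the collagen genes Col1a1 (12.52 after anti-CD84 and 12.53 after IgG1) and Col1a2 (12.16 and 12.06), which goes with the labelled cell type. Counts of detected genes in the lists below are read beside the whole, in which 13290 of 22180 genes were detected.

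Fat cells arise from mesenchymal precursors that also give rise to bone and cartilage cells, and marrow stroma can accumulate fat. In the textbook sequence, hormonal signals induce C/EBP beta and C/EBP delta, which then switch on C/EBP alpha and the nuclear receptor PPAR gamma, and these maintain one another and drive the genes of the mature fat cell. Mature fat cells release fatty acids from lipoproteins with lipoprotein lipase, take them up and carry them through the cell with CD36 and fatty acid binding proteins, store them as triglyceride in droplets coated by perilipins, and secrete adiponectin.

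The transcription factor, FABP5 and perilipin 2 genes were measured on both arrays, whereas Fabp4, Plin1, Lpl, Cd36 and Adipoq lay near or below the detection level. Of the 10 genes, 5 passed the detection level on both arrays (Cebpa, Cebpb, Cebpd, Fabp5 and Plin2), 2 were above it only after IgG1 (Fabp4 and Plin1), and 3 were above it on neither array (Lpl, Cd36 and Adipoq). Of all 22180 genes, 11765 were above it on both arrays and 13290 on at least 1, so these detection counts are near the background. None of the 5 genes measured on both arrays differed by 1.5-fold: 0 were higher and 0 were lower by that size. Of the 11765 genes detected on both arrays, 9.56% were higher after anti-CD84 by that size and 3.88% were lower by it, so that 0 of 5 is close to the background in either direction. The measured differences of Fabp4 and Plin1 were also under 1.5-fold, but their values after anti-CD84 are under the detection level, so a fold of 1.5 or more is possible for both. Among all 13290 detected genes, counted by measured values also where 1 array was under the detection level, as in every list described here, 10.7% were higher and 6.40% lower. Of all genes past 1.5-fold 62.7% were higher, a share that is 47.6% once the differences are centred on their median. By any size, 2 of the 5 were lower (Cebpd and Fabp5), as were 39.3% of all genes detected on both arrays and 41.0% of all genes detected on either. The Fabp5 difference was the largest of the 5 genes measured on both arrays, with a value 1.42-fold lower after anti-CD84.

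To show the regulatory sequence beside the values, the start-proximal promoters of 4 of the genes are given, a pair of detected transcription factor genes (Cebpa and Cebpb), a droplet gene near the detection level (Plin1) and a hormone gene below it (Adipoq). The sequences are from RefSeq on build GRCm38.p6, in which promoter windows were found for 6 of the 10 genes (these 4, Plin2 and Cd36). Each is read 5′ to 3′ towards the gene and stops before the gene's span in RefSeq, so Plin1 is given with 122 of its 250 bases. Capitals mark matches to any of the motifs named after the sequences.
Cebpa, chr7:35119043-35119292, plus strand: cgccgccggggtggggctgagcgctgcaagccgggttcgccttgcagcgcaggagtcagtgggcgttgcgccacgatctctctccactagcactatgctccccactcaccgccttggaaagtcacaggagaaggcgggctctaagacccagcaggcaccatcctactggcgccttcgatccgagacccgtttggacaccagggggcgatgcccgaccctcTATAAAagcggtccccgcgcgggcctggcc
Cebpb, chr2:167688665-167688914, plus strand: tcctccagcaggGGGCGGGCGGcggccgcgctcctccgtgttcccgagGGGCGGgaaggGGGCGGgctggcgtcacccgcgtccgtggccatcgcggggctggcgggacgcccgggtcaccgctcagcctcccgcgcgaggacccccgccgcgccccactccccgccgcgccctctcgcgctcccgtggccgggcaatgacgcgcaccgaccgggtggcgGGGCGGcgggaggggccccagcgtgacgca
Plin1, chr7:79732905-79733026, minus strand: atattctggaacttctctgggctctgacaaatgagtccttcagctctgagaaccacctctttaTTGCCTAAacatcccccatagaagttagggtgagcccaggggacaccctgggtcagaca
Adipoq, chr16:23146286-23146535, plus strand: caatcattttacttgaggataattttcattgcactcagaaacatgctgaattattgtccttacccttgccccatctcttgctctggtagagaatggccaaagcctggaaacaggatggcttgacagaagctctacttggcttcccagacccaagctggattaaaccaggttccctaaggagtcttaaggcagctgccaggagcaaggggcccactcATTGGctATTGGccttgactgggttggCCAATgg

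Over the 250 bases before the annotated start, both strands were searched for TTGCNNAA as a C/EBP consensus, for CCAAT as the box of that name, for TATAAA as a TATA box, for CACGTG as an E-box, for AGGTCA as the core of nuclear receptor sites and for GGGCGG as a GC box. Matches of one motif may share bases, as GC boxes do in Cebpb. The Cebpb window held 5 GC boxes, a motif present in 32.7% of 32851 promoter windows of this length, and it was 81.6% G and C, richer than 99.3% of them. The Cebpa window was 66.4% G and C, richer than 85.2% of windows, and held a TATAAA at position -30 from the start, a motif present in 12.4%. CpG dinucleotides occurred in Cebpb at 0.985 and in Cebpa at 0.801 of the number that base composition gives, against a median of 0.373 over all windows. The Adipoq window held 0 CpG dinucleotides and 3 matches to CCAAT, which 33.8% of windows hold at least once. The Plin1 window held 1 CpG and 2 matches to the C/EBP consensus, found in 9.56% of windows, with 1 of them inside the stretch shown. AGGTCA was present in the Plin2 and Cd36 windows and in 14.0% of all windows, and CACGTG in 0 of the 6 and in 6.02% of all. Plin2, the brightest of the 10 genes, and Cd36, which was not detected, had nearly the same CpG ratio in their windows, 0.256 and 0.258. Only 92 of the 250 Plin2 bases, and at most a small part of the Cd36 window, lie outside the gene's span in RefSeq. These ratios therefore describe largely bases inside the 2 genes. A match to these letters is not a measured binding site.

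Cebpb and Cebpa had almost the same value on both arrays. Cebpb, an early inducer of the adipogenic programme, was at 6.70 after anti-CD84 and 6.67 after IgG1, a log2 difference of 0.03. Cebpa, which maintains the mature fat cell state, was at 6.70 and 6.64, a difference of 0.07. These differences are smaller than the shift of all detected genes, whose median difference was 0.09, and both turn slightly negative once the arrays are rescaled (-0.06 and -0.02 with the differences centred on that median). Cebpd, the other early inducer, was at 5.19 after anti-CD84 and 5.57 after IgG1, 1.30-fold lower. Both Cebpd values are within 1 log2 unit of the detection level. Of the 5057 detected genes with a mean level from 5 to 7, 15.9% were as low as Cebpd or lower, and the standard deviation of the differences in that band was 0.48. With 1 array per group the spread over genes of similar level is the only scale for such a difference, and it mixes array noise with real change.

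**Figure D1:**
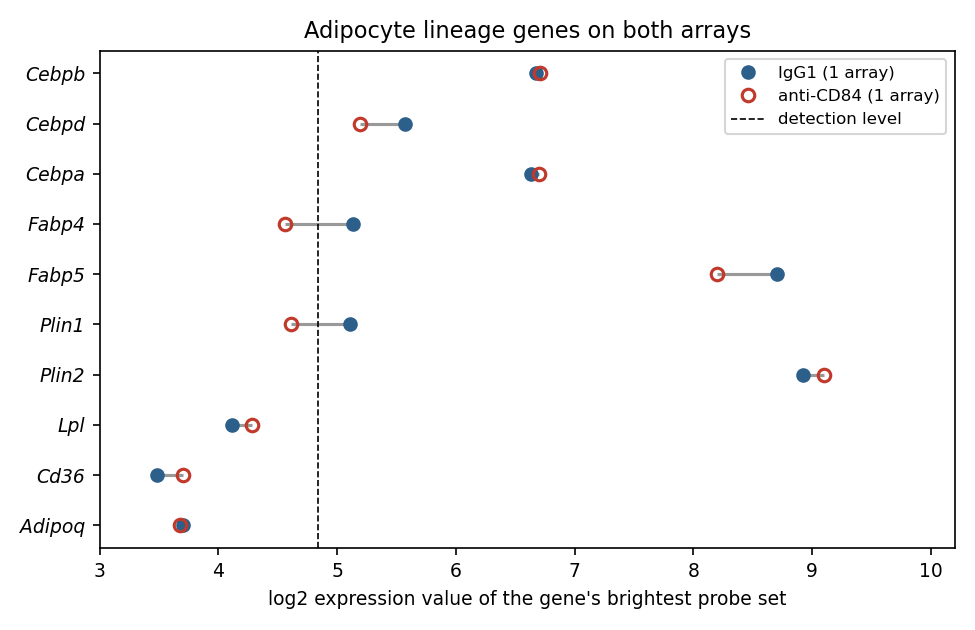
Log2 expression value of the brightest probe set of each adipocyte lineage gene (horizontal axis) on the IgG1 array (filled points) and the anti-CD84 array (open points), with the detection level of 4.84 dashed. Cebpa and Cebpb have nearly the same value on both arrays, Fabp4 and Plin1 straddle the detection level, and Lpl, Cd36 and Adipoq lie below it. Points are compared within a row, since probe sets differ in brightness for the same amount of RNA.

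Among the fatty acid binding proteins, small cytosolic carriers of long-chain fatty acids, Fabp5 was lower after anti-CD84 on its 3 detected probe sets. FABP5 is the epidermal type, found in many tissues, and FABP4 (also called aP2) is the type of the mature fat cell, which capillary endothelium and macrophages also make. The brightest Fabp5 probe set was at 8.20 after anti-CD84 and 8.70 after IgG1. Its log2 difference of -0.51 is reached or passed downward by 4.10% of the 4542 detected genes with a mean level from 7 to 9, and it lies inside the range of the middle 95% of them, which runs from -0.63 to 0.86. The second probe set was at 7.90 and 8.35 and the third at 6.19 and 6.38, and the fourth, at 3.43 and 3.91, was detected on neither array. Over the 3 detected probe sets the differences averaged -0.38 ± 0.17 (SD over probe sets, which share the same 2 RNA samples and are not replicates). Of 54 genes with at least 3 detected probe sets, 20.4% were lower on all of them, so such agreement is common on these arrays. Fabp5 has close processed copies in the mouse genome, and whether its probe sets read those copies or the same transcript was not examined.

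**Figure D2:**
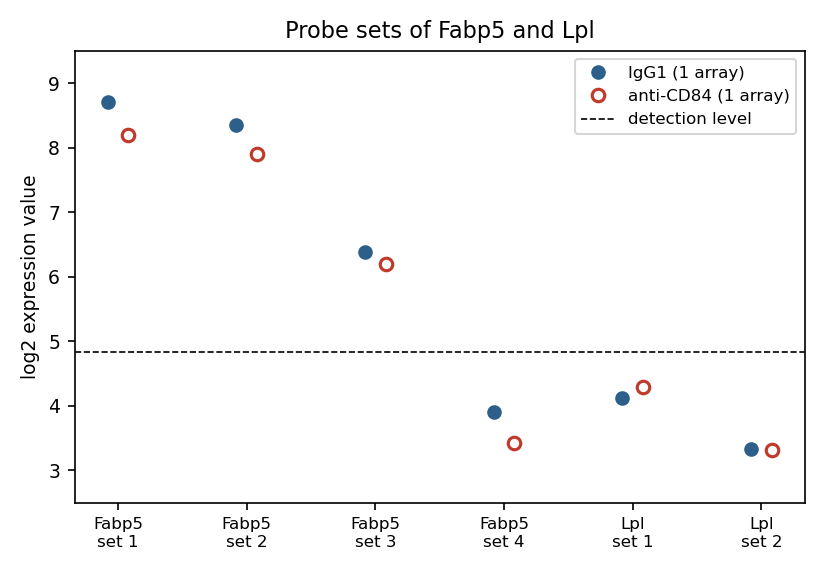
Log2 expression value (vertical axis) of each of the 4 Fabp5 and 2 Lpl probe sets on the IgG1 array (filled) and the anti-CD84 array (open), with the detection level dashed and sets numbered by brightness. The 3 Fabp5 sets above the detection level are lower after anti-CD84, by 0.19 to 0.51 on the log2 scale, and the fourth Fabp5 set and both Lpl sets lie below that level.

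Fabp4 was at 4.56 after anti-CD84, below the detection level, and at 5.13 after IgG1. Counted from the detection level it was at least 1.22-fold lower, a bound that takes the brighter value as free of noise. As measured, 21.0% of the 1483 detected genes with a mean level under 5 were as low as Fabp4 or lower. The standard deviation of the differences in that band was 0.62. That band holds only genes above the detection level on at least 1 array. Genes with a mean below that level enter it only if the arrays differ enough. The share and the spread are therefore partly set by the filter and do not describe dim genes in general. Fabp3, the heart-type protein, was detected on both arrays, at 9.17 and 9.12, and its difference of 0.06 turns negative when the arrays are rescaled. Of 12 measured relatives of the FABP and retinoid-binding family 3 were detected, with 0 at least 1.5-fold higher and 1 lower. By that size 6.40% of all detected genes were lower. The lower relative was Rbp7, a retinol-binding protein of fat and endothelium, with values of 3.75 and 5.12 and a fold of at least 1.22 from the detection level. Rbp7 passed that level through the IgG1 array alone and so had to be lower. Crabp2, a retinoic acid carrier, was at 9.65 and 9.72.

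The perilipins coat the lipid droplet and control access of lipases to its triglyceride. Plin2, the perilipin of most cell types, was at 9.10 after anti-CD84 and 8.92 after IgG1, 1.13-fold higher, a size that 39.9% of the 1936 detected genes with a mean level from 9 to 11 reach. Plin1, the perilipin of the fat cell, was at 4.61 after anti-CD84 and 5.11 after IgG1, and so at least 1.21-fold lower from the detection level. As measured, 24.7% of the 1483 detected genes with a mean level under 5 were as low as Plin1 or lower. As for Fabp4, that share is partly set by the detection filter. In the same family Plin3 was at 8.52 and 8.36 and Plin4 at 7.69 and 7.52. Plin5, the perilipin of oxidative tissue, was at 4.62 and 5.24 and at least 1.32-fold lower. The perilipins measured on both arrays thus differed by less than 1.5-fold, and Plin1 and Plin5 passed the detection level after IgG1 alone.

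Lpl, Cd36 and Adipoq were not detected. The brighter Lpl probe set was at 4.29 after anti-CD84 and 4.12 after IgG1, and the dimmer at 3.31 and 3.33. Cd36, a class B scavenger receptor that takes up long-chain fatty acids, was at 3.70 and 3.48. Its relatives Scarb1, the HDL receptor, at 9.24 and 9.37, and Scarb2, a lysosomal membrane protein, at 8.45 and 8.30, were detected and lay within 1.5-fold. Adipoq, which encodes adiponectin, was at 3.68 and 3.70. No fold is given for these 3 genes, because values under the detection level carry no order. A transcript present at a low level would not be told apart from the background at these values.

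**Figure D3:**
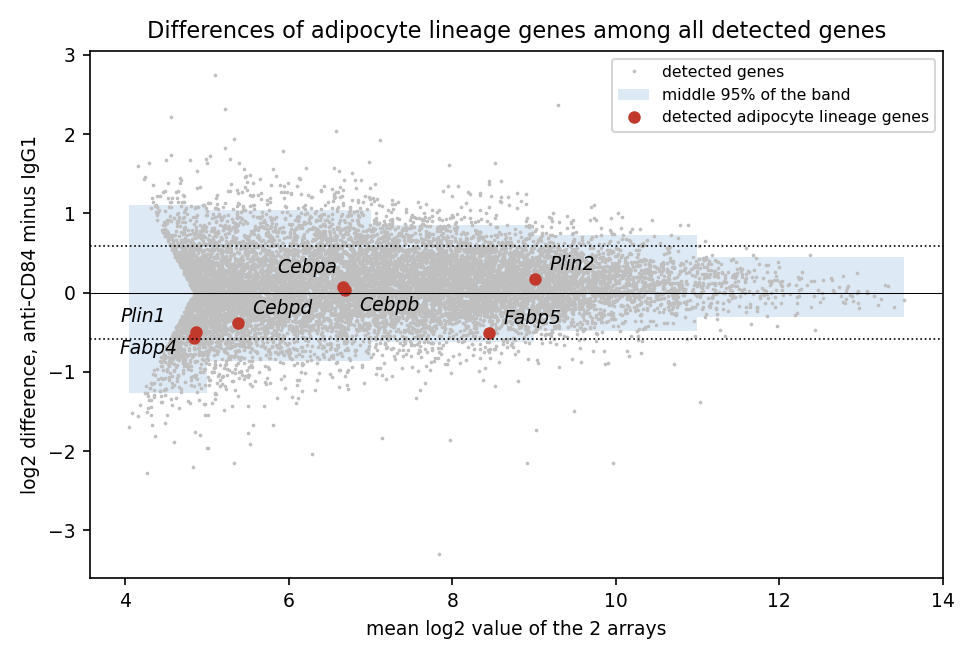
Log2 difference, anti-CD84 minus IgG1 (vertical axis), against the mean log2 value of both arrays for all 13290 detected genes (grey) and the 7 detected adipocyte lineage genes (red), with dotted lines at 1.5-fold and shading over the middle 95% of genes in each of 5 bands of level. As measured, all 7 genes lie inside the shading and between the dotted lines, and for Fabp4 and Plin1 the plotted difference uses a value under the detection level. In the lowest band the shading is partly set by the detection filter.

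As a group the 7 detected genes had a median difference of -0.38, against 0.09 for all detected genes, but that value gives no support to a shift of the lineage. Fabp4 and Plin1 passed the detection level only through the IgG1 array, and such genes had to be lower after anti-CD84. With values floored at the detection level the median was -0.27. Over the 5 genes measured on both arrays it was 0.03, and over all 10 genes 0.0020. When the arrays are rescaled the count of genes at least 1.5-fold lower becomes 2 with the differences centred (Fabp5 and Fabp4) and 1 with a loess curve removed or with quantile normalization (Fabp5 in each). The Fabp5 value is therefore on the edge of 1.5-fold, at -0.59 to -0.60 under these scalings. Which cells in the culture carried the transcripts is not known from bulk RNA, in which fewer cells of a type and less RNA per cell cannot be told apart.

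Genes of adipogenic regulators were mostly detected and lay within 1.5-fold. Of 20 measured, 16 were detected, with 1 at least 1.5-fold higher, 0 lower and a median difference of 0.20. Stat5b, a transcription factor of growth hormone signalling, was 1.89-fold higher after anti-CD84 (8.34 against 7.42). Klf5 (6.47 against 5.96) was 1.42-fold higher and Srebf1, a regulator of lipid synthesis, 1.35-fold higher (6.74 against 6.31). Rxra, the partner of PPAR gamma on DNA, was 1.31-fold lower (7.65 against 8.04). Pparg, singled out for its role after its values were seen, was at 7.81 after anti-CD84 and 8.06 after IgG1, 1.19-fold lower, and 14.4% of the genes with a mean level from 7 to 9 were as low or lower. In the C/EBP family Cebpg, a dimer partner looked up on the same footing, was at 8.62 and 8.40. Ddit3, the stress-induced member that blocks other C/EBP proteins, was at 9.25 and 9.66, 1.33-fold lower. Cebpe, of the granulocyte lineage, was at 4.70 and 5.11, at least 1.21-fold lower.

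Regulators that restrain adipogenesis were detected in 15 of 18 measured, with 1 at least 1.5-fold higher, 1 lower and a median of 0.14. Gata3, a transcription factor of preadipocytes that opposes PPAR gamma, was 1.91-fold lower after anti-CD84 (5.09 against 6.02), and a further probe set of it was at 4.78 and 5.06. Foxo3 was 1.58-fold higher (7.35 against 6.69), a size that drops to a log2 difference of 0.54 to 0.57, under 1.5-fold, under the 3 rescalings. Zfp521, which represses early B cell factor and holds precursors back, was 1.38-fold higher (7.48 against 7.01). The preadipocyte surface protein gene Dlk1, named after its values were seen, was detected on neither array (4.45 and 3.75).

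Among genes that mark preadipocytes or the fat-forming progenitors of marrow, Cxcl12, Pdgfra and Foxc1 were higher after anti-CD84 by over 1.5-fold, whereas Ebf3 and Vcam1 hardly differed. Ebf3 was at 7.28 against 7.30 and Vcam1 at 8.14 against 8.13, both named after their values were seen. By any size 10 detected genes of the list were higher and 2 lower, where 41.0% of all detected genes were lower, and 5 genes were detected on neither array. Only 9 passed the detection level on both arrays. Fgf10 and Icam1 passed it through the anti-CD84 array alone and had to be higher. Hp passed it through the IgG1 array alone and had to be lower. Icam1 and Hp are named only for this. The differences of Vcam1 (0.01) and Icam1 (0.05) were below the median of all detected genes, 0.09. Of 17 measured, 12 were detected, 4 of them at least 1.5-fold higher and 0 lower, with a median of 0.31, where 10.7% of all detected genes were higher and 6.40% lower by that size. Cxcl12, the chemokine of marrow reticular cells, was 2.15-fold higher (10.29 against 9.19), Pdgfra, a receptor of mesenchymal progenitors, 1.89-fold higher (10.21 against 9.29), and Foxc1, a transcription factor of those reticular cells, 1.68-fold higher (9.52 against 8.77). Fgf10, a growth factor of fat development, was at 5.62 against 4.65, the latter under the detection level, and so at least 1.71-fold higher, while its further probe set differed by 0.23. Lepr, the leptin receptor and a defining gene of the marrow reticular cell, was detected on neither array (4.04 and 3.60), and it too was named after its values were seen. The list was assembled with the Cxcl12, Pdgfra and Foxc1 values already known, so its count is not independent evidence of a direction.

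**Figure D4:**
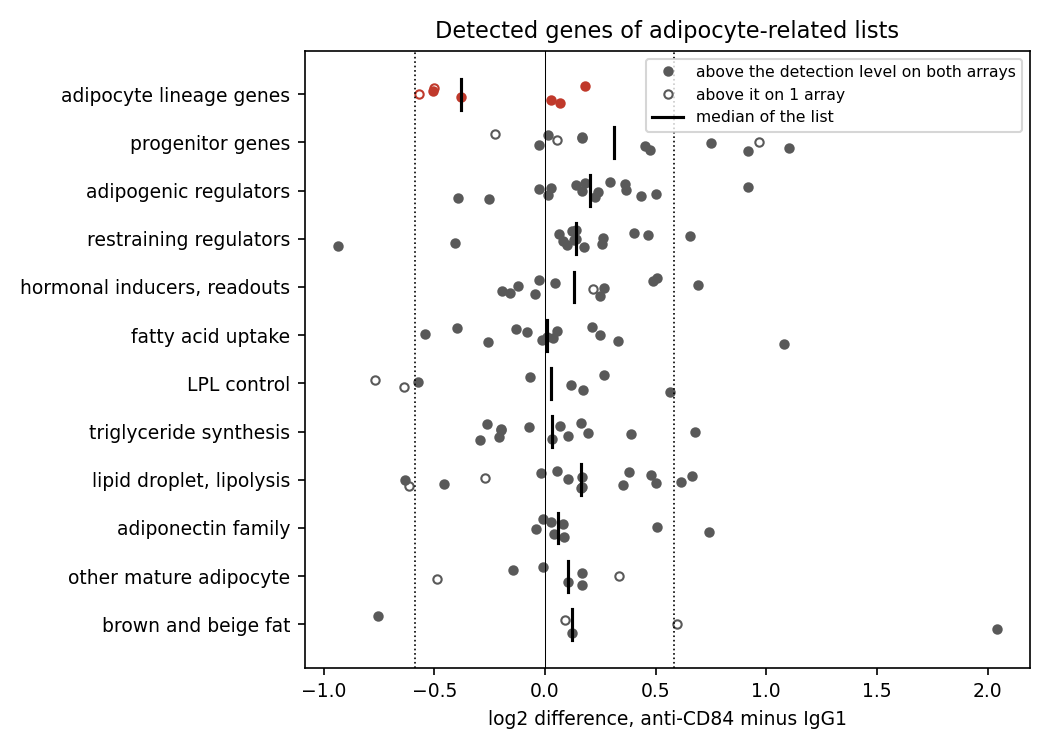
Log2 difference, anti-CD84 minus IgG1 (horizontal axis), of every detected gene of the adipocyte lineage genes (red) and of 11 related lists (grey), filled where the gene passed the detection level on both arrays and open where on 1, with the median of each list as a bar and dotted lines at 1.5-fold. The adipocyte lineage genes lie between -0.57 and 0.18, and the progenitor list has 4 genes past 1.5-fold higher.

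Genes for the handling of fatty acids differed in both directions and mostly by less than 1.5-fold. Of 13 genes of fatty acid uptake and activation, all detected, 1 was at least 1.5-fold higher and 0 lower (median 0.01). Slc27a1, the fatty acid transporter FATP1, was 2.12-fold higher (6.72 against 5.64), and its relative Slc27a4 1.26-fold higher (6.74 against 6.41). Cav1, a caveolar protein that is abundant in fat cells, was 1.46-fold lower (7.98 against 8.53), which passes 1.5-fold under the 3 rescalings, and the lipoprotein receptor Vldlr was 1.32-fold lower (8.91 against 9.31). Among 14 genes of triglyceride synthesis 13 were detected, with 1 higher and 0 lower (median 0.03). The phosphatidate phosphatases Lpin3 and Lpin1 were 1.60-fold higher (6.40 against 5.72) and 1.31-fold higher (7.10 against 6.71), and the glycerol phosphate acyltransferases Gpam and Gpat4 were 1.22-fold and 1.20-fold lower.

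Of 11 genes that mature or control LPL, 8 were detected, with 0 at least 1.5-fold higher and 2 lower (median 0.03), and neither of the lower genes was above the detection level after anti-CD84. Gpihbp1, the capillary anchor of LPL, was at 4.33 after anti-CD84 and 4.96 after IgG1, at least 1.09-fold lower, and Apoa5, an LPL activator of the liver, was at least 1.17-fold lower (4.30 against 5.07). Lmf1, which folds the lipase in the endoplasmic reticulum, was 1.48-fold higher (9.25 against 8.69), and Angptl8, an LPL inhibitor with its relatives, 1.49-fold lower (5.39 against 5.96), which passes 1.5-fold under the 3 rescalings, at -0.61 to -0.66, and brings the count of lower genes in this list to 3 under each of them. Lpl itself stayed below the detection level, as given above. In the lipase family Lipa, the lysosomal acid lipase, was 1.39-fold higher (9.38 against 8.90) and Lipi 1.33-fold higher (6.74 against 6.33), with 3 of 6 measured relatives detected.

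Of 19 genes of the droplet coat and of lipolysis 16 were detected, with 2 at least 1.5-fold higher and 2 lower (median 0.16). Mgll, the monoglyceride lipase, was 1.58-fold higher (6.42 against 5.76) and Bscl2, which encodes seipin, a protein of droplet formation, 1.53-fold higher (7.98 against 7.36). With the differences centred both fall under 1.5-fold, to 0.58 and 0.53 on the log2 scale, as they do with quantile normalization (0.57 and 0.52). G0s2, an inhibitor of adipose triglyceride lipase, was 1.55-fold lower (5.64 against 6.28), but its further probe set differed by -0.16, and Plin5 was the other gene lower by 1.5-fold as measured. In the adiponectin family 8 of 13 measured genes were detected, with 1 higher and 0 lower (median 0.06). C1qtnf1 was 1.67-fold higher (5.95 against 5.20) and C1qtnf6 1.42-fold higher (5.73 against 5.23), whereas C1qtnf12 (7.47 and 7.39) and the adiponectin receptor gene Adipor1 (9.51 and 9.43) had differences of 0.08, whose sign changes when the arrays are centred.

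Other genes of the mature fat cell were divided between detected and undetected. Of 16 measured, 5 were detected on both arrays: Plin4, given above, Pnpla2 (8.22 and 8.12), the adipose triglyceride lipase gene, Lipe (5.63 and 5.46), which encodes hormone-sensitive lipase, Rbp4 (5.27 and 5.42) and Nnat (5.48 and 5.48). Detected on neither array were 9, among them Retn (4.12 and 4.07), which encodes resistin, Cidec (3.95 and 3.52), a droplet fusion protein, and Lep (4.25 and 3.17), which encodes leptin. These genes were named after their values were seen. The 7 genes detected on at least 1 array held 0 at least 1.5-fold higher and 0 lower (median 0.10). Gpd1, which makes glycerol phosphate, was at 4.41 and 4.89 and at least 1.04-fold lower, with a further probe set at 4.47 and 4.45. Aqp7, the glycerol channel of the fat cell, was at 4.98 and 4.65 and at least 1.10-fold higher. Cfd and Adrb3 were not analysed here.

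Markers of other cell types that use Fabp4, Lpl or Cd36 were mostly near or below the detection level, apart from the macrophage marker Cd68, which was at 5.95 after anti-CD84 and 6.21 after IgG1. Of 8 endothelial markers 4 were detected, 3 of them lower after anti-CD84 by 1.5-fold as measured (Cdh5, Pecam1 and Gpihbp1), each below the detection level on that array, and Emcn was at 5.19 on both. The log2 of the summed level of all 8 was 7.46 after anti-CD84 and 7.88 after IgG1, sums that include values under the detection level for 7 markers after anti-CD84 and 4 after IgG1, so no direction is read from them. Of 11 macrophage markers 5 were detected, 1 higher and 0 lower, with a log2 summed level of 8.03 and 8.18. Those sums include the 6 markers detected on neither array, so no direction is read from them either. The higher gene was Csf1r, at 4.86 after anti-CD84 and 4.14 after IgG1, which is at least 1.02-fold higher counted from the detection level, and it is not counted when both arrays must be above that level. The pan-leukocyte gene Ptprc was below the detection level (3.90 and 3.86). Cdh5, Pecam1 and Gpihbp1, like Fabp4 and Plin1, passed the detection level through the IgG1 array alone and so had to be lower after anti-CD84, and their part in the values of those genes was not tested. Of 6 osteoblast markers 2 were detected, and of 6 chondrocyte markers 4, with Col2a1 1.85-fold lower (8.61 against 9.49) and Sox9 1.42-fold lower (7.99 against 8.50). The count of chondrocyte markers at least 1.5-fold lower, 1 as measured, was 3 with the differences centred and 2 with a loess curve removed or with quantile normalization. Of 5 muscle markers 4 were detected, with 0 past 1.5-fold, and of 4 B lymphoid markers 0.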

How the data were processed

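RNA of 2 cultures, 1 per group, was measured on 1 array each from 200 ng of total RNA. The deposited values are log2 expression values per probe set, made with RMA and Partek per the submitters' processing notes, which state no version or setting. The log2 scale was inferred from the values (1.82 to 13.8). RMA is in general a background correction, quantile normalization and probe summary, which compresses differences of dim probe sets. Its genome build and annotation version were not given in the sources used here.

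Gene names come from GEO's annotation of the platform (23521 with 1 symbol, 1814 with several, 16010 not named), and a gene is represented by its brightest single-symbol probe set. The gene IDs of all 10 genes were found in RefSeq with the same symbols. The genes and lists were chosen with earlier results of these data known. Named genes are the 10 genes and, per related list, the 4 detected genes with the largest absolute difference, or 2 where none reached 1.5-fold. Genes named otherwise are marked as such, apart from marker genes of cell types and genes reported as undetected. Counting at 1.5-fold was tested on simulated data with little noise and changes planted in bright genes. That checks the counting step and not the calls on these arrays. Alternatives were 3 rescalings, 3 level filters, the mean of probe sets and floored values. The tools were limma 3.58.1 in R 4.3.3, and Python 3.11.15 with pandas 2.3.3, numpy 2.4.6 and matplotlib 3.10.9.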

Additional observations from a re-analysis of the deposited data

How the results depend on the processing

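The count of adipocyte lineage genes at least 1.5-fold higher was 0 under all 8 alternatives. The count at least 1.5-fold lower, 0 as reported, was 2 with the differences centred on the median of detected genes and 1 with a loess curve removed or with quantile normalization (the Fabp5 difference is at the edge of that size). It stayed at 0 under the other 5. The median difference of the detected genes, -0.38, was 0.0289 when both arrays had to be above the detection level and 0.0020 with no level filter, because other genes then enter or leave it. Under the other 6 it ran from -0.46 to -0.16. The value of -0.16 came from the stricter level filter, which left only Fabp5 and Plin2. Dio2 differed by 0.95 with its probe sets averaged, and Rbp7 by -0.28 with values floored. No paired analysis was possible because each group has 1 array, and for the same reason no replicate was left out. Precision is limited by the 2 arrays and, for Fabp4, Plin1, Lpl, Cd36 and Adipoq, by signal near or under the background.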

Other observations

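Genes of the hormonal signals that start adipogenesis were mostly within 1.5-fold. Of 14 measured, 12 were detected, 1 at least 1.5-fold higher and 0 lower, with a median difference of 0.13. Irs1, an adaptor of the insulin receptor, was 1.61-fold higher after anti-CD84 (7.48 against 6.79), but at 0.58 on the log2 scale and just under 1.5-fold with quantile normalization, and its further probe set was below the detection level. Crem, a cAMP-responsive transcription factor, was 1.42-fold higher, Stat3 1.40-fold higher (10.04 against 9.55) and the insulin receptor gene Insr 1.20-fold higher (7.96 against 7.70). Acute phase genes known as targets of C/EBP beta and delta had 7 of 11 detected, with 0 at least 1.5-fold higher and 0 lower (median 0.26). Cd14 was at 5.00 against 4.55, at least 1.12-fold higher, and Serpina3n at 5.01 against 4.64, at least 1.13-fold higher. Both passed the detection level through the anti-CD84 array alone and so had to be higher. Only 3 of the 7 detected acute phase genes passed it on both arrays, so no direction is read from the median of 0.26.

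In the brown and beige fat list 5 of 10 genes were detected, 2 of them at least 1.5-fold higher and 1 lower (median 0.12). Of all detected genes 10.7% were higher and 6.40% lower by that size. Counting only genes above the detection level on both arrays, 1 was higher and 1 lower. Dio2, the deiodinase that activates thyroid hormone in brown fat and other tissues, was 4.12-fold higher (7.60 against 5.56), a size that 0.0593% of the genes with a mean level from 5 to 7 reached, while a further Dio2 probe set was detected on neither array (3.29 and 3.43). Cox7a1, a respiratory chain subunit, was at 4.86 against 4.26, at least 1.02-fold higher, and its measured difference was under 1.5-fold with the differences centred (0.51). It passed the detection level through the anti-CD84 array alone and so had to be higher. Tbx1 was 1.69-fold lower (4.86 against 5.62), with its value after anti-CD84 only 0.02 above the detection level. Prdm16, a regulator of brown fat identity, had a difference of 0.12. Ucp1, the uncoupling protein that defines brown fat and that was named after its values were seen, was detected on neither array (3.61 and 3.56).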
